A study of Mus musculus with 13 samples.

Results

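The 9 genes described here are read as markers of bile duct, progenitor and fetal liver cells, and they were followed through whole mouse livers: Krt19, Krt7, Epcam, Sox9, Prom1, Cd24a, Afp, Gpc3 and Dlk1. They were chosen by name, and all 9 were found among the 22048 genes of the deposited count table. RNA-seq libraries came from 13 whole livers: 6 controls (3 male, 3 female), 3 livers from 72 h after partial hepatectomy (2 male, 1 female) and 4 livers depleted of hepatic stellate cells (1 male, 3 female). The control and hepatectomy livers were labelled as not depleted of stellate cells, the vitamin A-storing pericytes of the hepatic sinusoid. Mouse strain, age, the means of depletion and the share of liver removed are not given in the sources used here. Nothing in the labels says that every library came from its own animal, so p-values measure the spread between these samples. The 12 listed stellate cell markers were all called lower in the depleted livers, and their summed level was 3.49, 1.81, 1.80 and 32.4 CPM there against 139 to 401 CPM in controls. Depleted replicate 4 thus kept more of this signal than the other 3, and leaving it out ended no edgeR call among the 9 genes. Libraries held 35360991 to 51008737 counts, so the limit set by 3 counts lay between 0.0588 and 0.0848 CPM (each library's counts scaled to the same total of 1000000).

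Bile ducts and hepatocytes arise from a common fetal precursor, the hepatoblast. Cholangiocytes, the cells lining the ducts, keep keratins 7 and 19, the adhesion molecule Epcam and the transcription factor Sox9, whereas hepatocytes of the adult lose them. Afp, Gpc3 and Dlk1 are abundant in hepatoblasts and are silenced around birth, and several of these genes return in ductular reactions, in injured liver and in liver tumours. In bulk tissue, fewer cells of a type and less RNA per cell cannot be told apart.

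The promoters of 3 genes are shown because these genes stand for the different behaviours described here. Krt7 was called higher after hepatectomy, Epcam was called in no comparison, and Afp, a fetal gene called in no comparison, has 2 of the motif matches. Each is the 300-base RefSeq window (GRCm38.p6) from 250 bases before to 50 bases after the transcript start, written 5′ to 3′ on the gene's strand. Capitals mark a TATA box (TATAAA) or the half-site of the hepatocyte factor HNF1 (GTTAAT).
Krt7, chr15:101412153-101412452, plus strand: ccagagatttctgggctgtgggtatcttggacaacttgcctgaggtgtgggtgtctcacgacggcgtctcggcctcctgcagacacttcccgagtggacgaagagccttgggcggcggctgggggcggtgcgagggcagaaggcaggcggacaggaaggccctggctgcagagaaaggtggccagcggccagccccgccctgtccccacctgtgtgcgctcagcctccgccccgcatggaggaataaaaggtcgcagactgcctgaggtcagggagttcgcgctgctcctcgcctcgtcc
Epcam, chr17:87635729-87636028, plus strand: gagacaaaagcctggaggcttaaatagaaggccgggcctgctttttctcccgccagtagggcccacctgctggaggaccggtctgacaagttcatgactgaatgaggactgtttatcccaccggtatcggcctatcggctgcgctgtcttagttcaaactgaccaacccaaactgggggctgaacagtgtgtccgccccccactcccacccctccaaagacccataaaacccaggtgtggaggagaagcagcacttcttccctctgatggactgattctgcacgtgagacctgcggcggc
Afp, chr5:90490464-90490763, plus strand: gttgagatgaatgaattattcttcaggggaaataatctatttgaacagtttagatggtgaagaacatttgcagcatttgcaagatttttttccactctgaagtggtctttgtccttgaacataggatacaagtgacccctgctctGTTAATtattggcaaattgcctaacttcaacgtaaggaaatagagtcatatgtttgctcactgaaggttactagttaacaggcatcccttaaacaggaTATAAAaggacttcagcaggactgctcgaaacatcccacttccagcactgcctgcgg

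A set of 5 motifs was searched on both strands. Besides the TATA box and the HNF1 half-site, these were TGTTTAC for forkhead factors, GGAATG for the TEAD factors of the Hippo pathway and GTGGGAA for RBPJ, the Notch pathway factor. None of these letters occurred in the windows of Krt7, Epcam, Prom1 or Gpc3. The Afp window held TATAAA starting 7 bases before the RefSeq start, which is 30 bases before the start of the GENCODE gene model, and GTTAAT starting 105 bases before the RefSeq start. The Dlk1 window held TGTTTAC at 87 and at 67 bases before its start. Over all 32851 promoters of the table, 13.6% held TATAAA, 7.1% GTTAAT, 3.65% TGTTTAC, 14.7% GGAATG and 6.38% GTGGGAA. The table held 6 of the 9 genes, and a match is a string of letters, not a shown binding site.

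All 9 genes were scarce in these livers. Levels compared between genes are given per length, as CPM divided by the summed exon length in kilobases (RPKM). In controls Cd24a stood highest, at 1.64 ± 0.333 RPKM (SD, n = 6), followed by Afp at 0.880 ± 0.589, Epcam at 0.656 ± 0.102, Prom1 at 0.552 ± 0.591, Krt19 at 0.526 ± 0.0705 and Sox9 at 0.488 ± 0.103. Gpc3 at 0.243 ± 0.122 and Krt7 at 0.0999 ± 0.0344 came next, and Dlk1 was last at 0.00879 ± 0.0139. Ranges of neighbours in this order overlapped, except that every control was higher for Sox9 (lowest 0.400) than any was for Gpc3 (highest 0.376), and higher for Krt7 (lowest 0.0560) than for Dlk1 (highest 0.0358). In depleted livers Cd24a moved away from the rest, at 15.1 ± 9.20 RPKM (n = 4) with a lowest liver of 5.87, above the highest Sox9 value of 3.17. After hepatectomy Krt19 headed the order at 2.26 ± 1.23 RPKM (n = 3), with ranges overlapping those of Cd24a at 1.88 ± 0.568, Sox9 at 1.51 ± 0.713 and Afp at 1.40 ± 0.574.

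**Figure D1:**
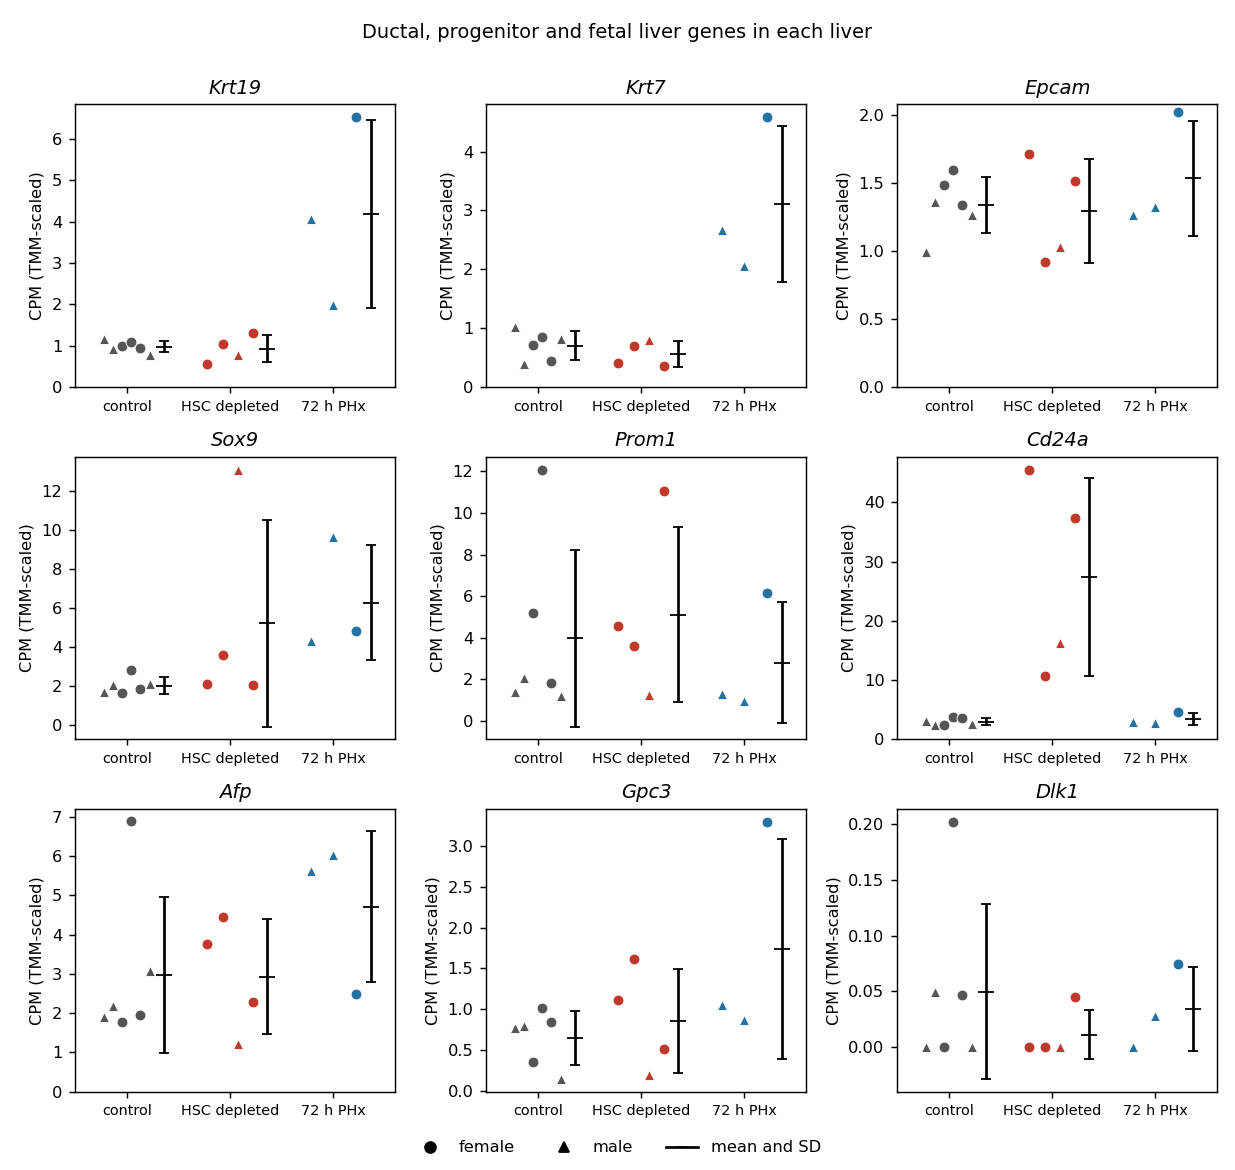
Level of each of the 9 genes in each liver, in CPM scaled by TMM factors, for 6 control, 4 depleted and 3 hepatectomy livers (72 h PHx). Circles are females, triangles are males, and the bar gives the mean and SD. The hepatectomy livers lie above every control for Krt19, Krt7 and Sox9, and the depleted livers lie above every control for Cd24a.

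Of the 8 genes abundant enough to test, 2 were called higher and 0 lower in depleted livers than in controls, by edgeR's quasi-likelihood test with group and sex in the model and an adjusted p under 0.05. The background was large, since 33.9% of the 13831 genes tested were called in that comparison and 18.9% were called higher. No tested gene of the 8 was lower at an unadjusted p under 0.05 either, or by DESeq2, in this comparison or after hepatectomy. After hepatectomy 2 of the 8 were called higher and 0 lower (4 higher at an unadjusted p under 0.05, 3 by DESeq2), where 8.42% of all tested genes were called and 6.06% called higher and 2.36% lower. The fitted log2 fold changes of the 8 had medians of -0.14 for depletion and 1.10 for hepatectomy, beside -0.03 and -0.02 over all genes tested. In the direct comparison of depleted with hepatectomy livers 3 of the 8 were called, 2 of them lower, where 23.4% of all tested genes were called and 10.1% called lower. The genes called in the comparisons with control were Cd24a and Sox9 for depletion, and Krt19 and Krt7 for hepatectomy. Both comparisons use the same 6 controls.

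**Figure D2:**
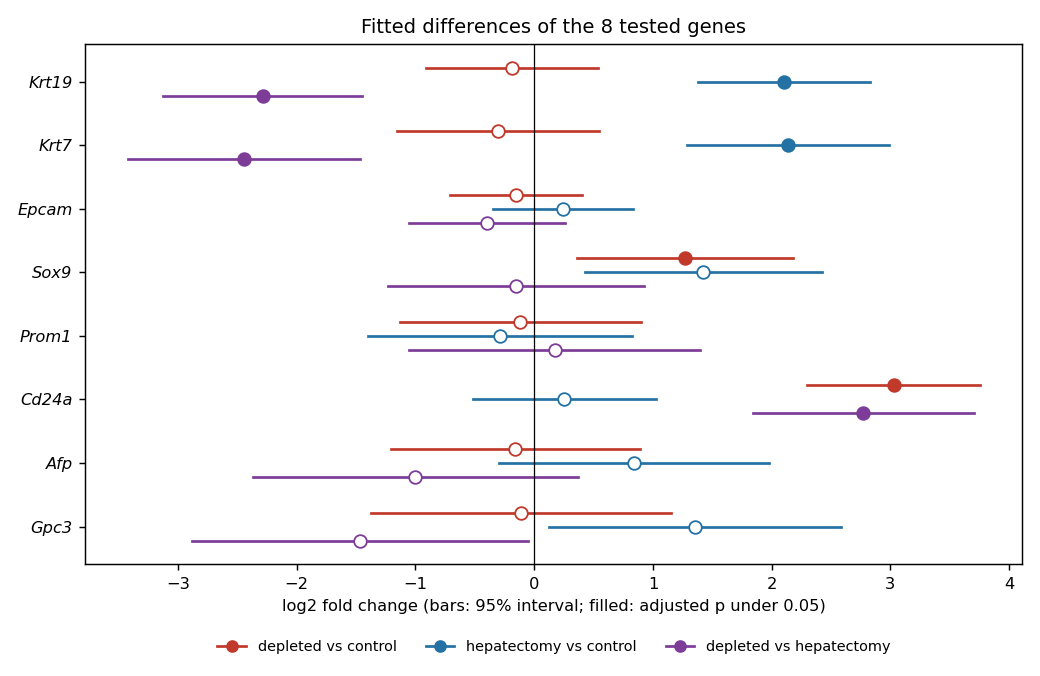
Fitted log2 fold change of the 8 tested genes in 3 comparisons, with its 95% interval. Filled points have an adjusted p under 0.05. Krt19 and Krt7 lie to the right only for hepatectomy against control, at 2.10 and 2.14, and Cd24a lies to the right for depletion, at 3.03.

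Krt19 and Krt7 encode type I and type II keratins, the intermediate filament proteins of duct epithelium. Krt19 (chromosome 11, 100140810 to 100148665, minus strand, GRCm38) was measured at 0.780 to 1.152 CPM in controls, with a median of 0.964. The 4 depleted livers had 0.557, 1.05, 0.786 and 1.31 CPM, and the 3 hepatectomy livers had 4.06, 1.99 and 6.53 CPM. Every hepatectomy liver was above every control and every depleted liver, while the depleted livers lay on both sides of the controls. After hepatectomy Krt19 was 4.30-fold higher than in controls (log2 fold change 2.10, SE 0.33, 95% interval 1.38 to 2.83, edgeR adjusted p = 0.00388). Depleted and control livers did not pass the test (log2 fold change -0.18, 95% interval -0.91 to 0.54, edgeR adjusted p = 0.713). The direct comparison placed depleted livers 4.88-fold below hepatectomy livers (log2 fold change -2.29, SE 0.39, edgeR adjusted p = 0.00135).

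Krt7 (chromosome 15, 101411043 to 101430313, plus strand) had the same order of groups at a lower level. Controls ran from 0.395 to 1.02 CPM with a median of 0.759, and the depleted livers had 0.407, 0.694, 0.803 and 0.356 CPM. The hepatectomy livers had 2.67, 2.05 and 4.59 CPM, all above the highest control and the highest depleted liver. The fitted difference was 4.40-fold above controls (log2 fold change 2.14, SE 0.39, 95% interval 1.28 to 2.99, edgeR adjusted p = 0.00715). Depleted livers were not called against controls (log2 fold change -0.31, 95% interval -1.16 to 0.54, edgeR adjusted p = 0.585) and were 5.45-fold below hepatectomy livers (log2 fold change -2.44, SE 0.45, edgeR adjusted p = 0.00227).

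Both keratin calls against control have limits. With the replicate number as a block, Krt19 kept a log2 fold change of 2.02 but its edgeR adjusted p was 0.0512, and Krt7 had 1.94 and 0.0716. Krt7 also lost its call without hepatectomy replicate 3 (1.58, edgeR adjusted p = 0.0671), the female liver of that group, whereas Krt19 held with any 1 library left out (1.72 to 2.41). In females alone, with 1 hepatectomy liver, neither passed (Krt19 2.71 and Krt7 2.79, edgeR adjusted p = 0.0599 and 0.0826).

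Markers of mesothelial cells, which cover the liver surface and also carry these keratins, were higher in the same livers. Of 6 mesothelial markers 5 were called higher after hepatectomy and 0 in depleted livers by edgeR (1 at an unadjusted p under 0.05, 1 by DESeq2). The shares of all tested genes called higher were 6.06% after hepatectomy and 18.9% in depleted livers. Mesothelin (Msln), the most abundant of them, was 0.0900 to 0.914 CPM in controls and 4.35, 2.89 and 17.5 CPM in the 3 hepatectomy livers (log2 fold change 4.28, SE 0.73, edgeR adjusted p = 0.00504). Lrrn4, Upk1b and Upk3b had log2 fold changes of 4.41, 4.21 and 3.11 (edgeR adjusted p = 0.00682, 0.00186 and 0.0105). Upk3b did not pass without hepatectomy replicate 3 (2.14, edgeR adjusted p = 0.0855). With the replicate block neither Upk3b (2.51, edgeR adjusted p = 0.102) nor Msln (3.50, edgeR adjusted p = 0.0504) passed. Sums of the 6 markers ran from 1.05 to 4.55 CPM in controls, from 2.87 to 5.69 CPM with depletion and from 9.04 to 49.0 CPM after hepatectomy, and none of the 6 was at 0 in any group. Within the hepatectomy group the sums were 13.7, 9.04 and 49.0 CPM, the same order as for both keratins. That order was not particular to mesothelial markers. Hepatocyte sums (36914, 34789 and 41725 CPM) and stellate sums (248, 162 and 278 CPM) had it too, as did B cell, T cell and dendritic cell sums. Proliferation markers rose in the hepatectomy livers too, with 10 of 10 called higher, where 6.06% of all tested genes were. Their sums were 218, 529 and 82.4 CPM against 3.60 to 49.4 CPM in controls, an order opposite to that of the keratins. Proliferation markers also rose in depleted livers, where 8 of 10 were called higher, beside 18.9% of all tested genes, and the keratins were not called. Neutrophil markers, with 8 of 11 called higher after hepatectomy, are given with Cd24a. The part of these cells and of proliferation in the keratin difference was not tested.

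**Figure D3:**
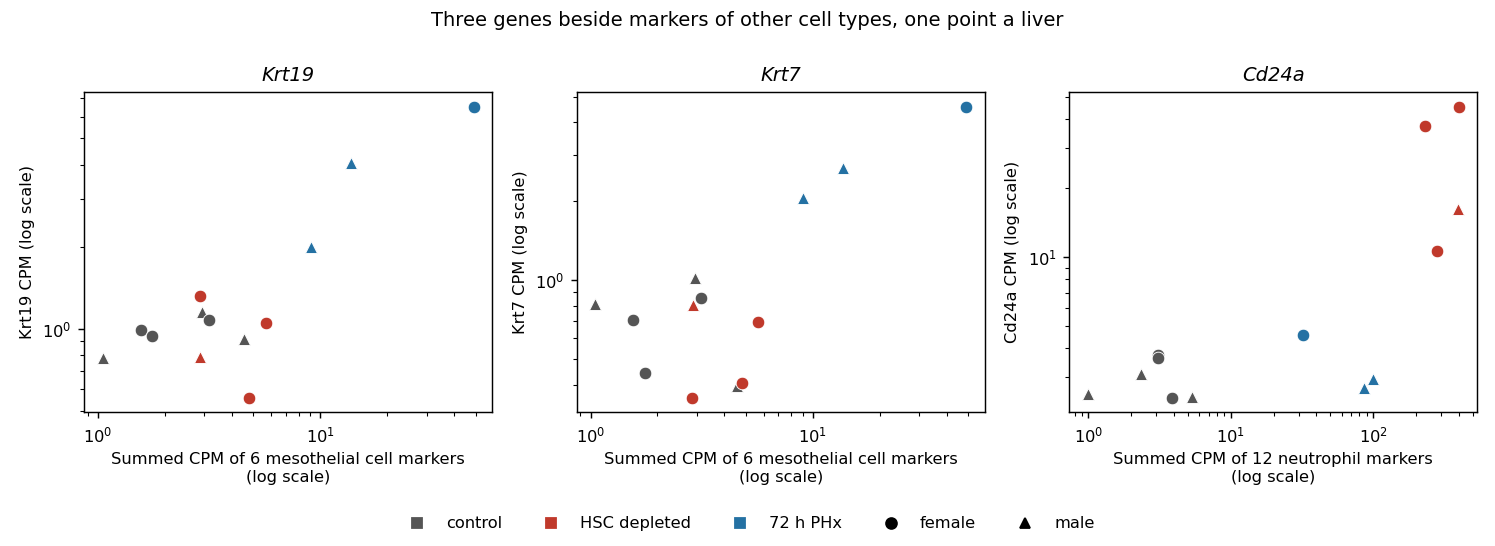
Krt19, Krt7 and Cd24a in CPM (log scale) against the summed CPM of marker genes of another cell type (log scale), 1 point per liver. The markers are 6 mesothelial genes for the keratins and 12 neutrophil genes for Cd24a. The 3 hepatectomy livers stand apart from controls in the keratin panels, and the 4 depleted livers stand apart in the Cd24a panel, where hepatectomy livers have 32.2 to 99.9 CPM of neutrophil markers with Cd24a at 2.69 to 4.59 CPM.

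The keratin partners Krt8 and Krt18, which hepatocytes express as well, were far more abundant and were not called after hepatectomy. Krt8 averaged 156 ± 27.7 CPM in controls (n = 6) and 239 ± 93.0 CPM after hepatectomy (n = 3), a log2 fold change of 0.58 (edgeR adjusted p = 0.192). For Krt18 the log2 fold change was 0.54 (edgeR adjusted p = 0.331). Across the 13 livers Krt19 and Krt7 correlated at r = 0.88 in log2 CPM, and at r = 0.41 once group means were removed. The first value is over livers that share groups, and it includes the difference between hepatectomy and the other livers. The genes with patterns most like Krt19 over the 13 livers were Bcl2l1 (r = 0.90), Bcam (r = 0.90) and Rhbdf1 (r = 0.89), and those most like Krt7 were Plin5 (r = 0.96), Gin1 (r = 0.95) and Pxmp4 (r = 0.92). With group means removed, Plin5 still had r = 0.89 with Krt7.

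Epcam, an adhesion molecule of the duct epithelium and of hepatoblasts (chromosome 17, 87635979 to 87651129, plus strand), was called in no comparison. Controls ran from 0.991 to 1.596 CPM with a median of 1.35, depleted livers had 1.71, 0.918, 1.03 and 1.51 CPM, and hepatectomy livers had 1.26, 1.32 and 2.02 CPM. All 3 groups overlapped. The log2 fold change was -0.15 in depleted livers (95% interval -0.71 to 0.40, edgeR adjusted p = 0.686) and 0.24 after hepatectomy (95% interval -0.34 to 0.83, edgeR adjusted p = 0.626). These intervals leave room for modest changes in either direction but not for one of the size fitted for Krt19 after hepatectomy. With group means removed, Epcam correlated with Cd24a at r = 0.79 and with Prom1 at r = 0.74 over the 13 livers, though its correlation with Krt19 was only 0.15.

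Sox9, a transcription factor of the ductal plate and of cholangiocytes (chromosome 11, 112782224 to 112787760, plus strand), was called for depletion on the strength of 1 liver and was not called after hepatectomy. Controls ran from 1.65 to 2.81 CPM with a median of 1.93. The depleted livers had 2.12, 3.61, 13.1 and 2.05 CPM, so 2 of the 4 were inside the control range and a single liver, replicate 3, was far above the rest. The hepatectomy livers had 4.32, 9.66 and 4.81 CPM, and all 3 were above every control.

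Against control, depletion gave Sox9 a fitted difference of 1.27 in log2 (SE 0.42, 95% interval 0.36 to 2.18, edgeR adjusted p = 0.0336). That call rested on depleted replicate 3, the only male of its group: without it the log2 fold change was 0.40 (edgeR adjusted p = 0.472), and in females alone it was 0.30 (edgeR adjusted p = 0.597). The call also ended with the replicate block (1.24, edgeR adjusted p = 0.0706) and without any of control replicates 1, 2, 3 or 6 or depleted replicate 2 (edgeR adjusted p = 0.0758, 0.0754, 0.0559, 0.0671 and 0.0578). After hepatectomy the Sox9 log2 fold change was 1.42 (SE 0.46, 95% interval 0.43 to 2.42) and was not called (edgeR adjusted p = 0.0766). It passed with DESeq2 (1.43, DESeq2 adjusted p = 0.0255), with only the 2 groups in the edgeR fit (1.63, adjusted p = 0.0153) and without control replicate 4 (1.64, edgeR adjusted p = 0.0378). The direct comparison of depleted with hepatectomy livers did not pass (log2 fold change -0.16, 95% interval -1.23 to 0.92, edgeR adjusted p = 0.853). The genes most like Sox9 over the 13 livers were Tacc2 (r = 0.87), Gskip (r = 0.86) and Kdm4a (r = 0.86).

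Cd24a encodes a small, heavily glycosylated surface protein on bile duct and progenitor cells that is also carried by neutrophils, B cells, dendritic cells and red cell precursors (chromosome 10, 43578284 to 43584265, plus strand). It had the largest change among the 9. Controls ran from 2.43 to 3.75 CPM with a median of 2.80, and hepatectomy livers had 2.94, 2.69 and 4.59 CPM. Depleted livers had 45.5, 10.6, 16.2 and 37.4 CPM. The lowest depleted liver was above the highest liver of either other group. Depleted livers were 8.15-fold above controls (log2 fold change 3.03, SE 0.33, 95% interval 2.30 to 3.75, edgeR adjusted p = 3.57e-05) and 6.83-fold above hepatectomy livers (log2 fold change 2.77, SE 0.43, edgeR adjusted p = 8.52e-04), though in females alone, with 1 hepatectomy liver, the latter was 2.74 and did not pass (edgeR adjusted p = 0.0913). The comparison with control held with any 1 library left out, at log2 fold changes of 2.76 to 3.28, and in females alone (3.25, edgeR adjusted p = 0.00623). Hepatectomy and control livers did not pass the test (log2 fold change 0.25, 95% interval -0.51 to 1.02, edgeR adjusted p = 0.708).

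Markers of the blood cell types that carry Cd24a were also higher in depleted livers. All 11 neutrophil markers tested, all 6 B cell markers and 5 of 6 conventional dendritic cell markers were called higher, as were 5 of 10 erythroid markers, all 6 T cell markers and 5 of 8 macrophage markers. The share of all tested genes called higher with depletion was 18.9%. Summed neutrophil markers ran from 0.990 to 5.31 CPM in controls, where Ly6g was at 0, and from 230 to 401 CPM with depletion. B cell markers went from sums of 4.65 to 9.61 CPM up to 30.8 to 53.2 CPM, and dendritic cell markers from 5.64 to 11.3 CPM up to 26.7 to 77.7 CPM. Macrophage markers summed to 75.0 to 608 CPM in controls and 1158 to 2268 CPM with depletion. After hepatectomy neutrophil markers also rose, to 32.2 to 99.9 CPM with 8 of 11 called higher, while Cd24a was not called there. B cell sums were 1.01 to 5.54 CPM after hepatectomy, with 0 markers called higher and 2 lower. Dendritic cell sums were 4.15 to 7.61 CPM and erythroid sums 102 to 191 CPM. In these 2 lists 0 were called, as for T cell and macrophage markers. Of all tested genes 6.06% were called higher and 2.36% lower after hepatectomy.

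Within the depleted group the erythroid sums of 669, 75.3, 99.99 and 545 CPM had the same order as Cd24a, with 2 livers above and 2 below the control range of 125 to 381 CPM. Epcam (1.71, 0.918, 1.03 and 1.51 CPM) had the order of Cd24a too, as did sums of the Notch and ductular reaction genes given below. The other blood cell lists had other orders: neutrophil sums were 401, 283, 396 and 230 CPM, B cell sums 32.9, 30.8, 34.5 and 53.2 CPM, and dendritic cell sums 40.7, 26.7, 77.7 and 70.3 CPM. Rhag, one of the erythroid markers, was at 0 in every control and hepatectomy liver. The part of these cell types in the Cd24a difference was not tested. The genes most like Cd24a over the 13 livers were Tapbp (r = 0.95), Samhd1 (r = 0.95) and Psmb8 (r = 0.95), which act in antigen presentation, nucleotide breakdown and the immunoproteasome. With group means removed these values were 0.54, 0.66 and 0.51.

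Prom1 encodes CD133, a membrane protein of ductal and progenitor cells (chromosome 5, 43993620 to 44102032, minus strand), and it varied widely within every group. Controls ran from 1.2 to 12.1 CPM with a median of 1.94, depleted livers had 4.54, 3.61, 1.24 and 11.05 CPM, and hepatectomy livers had 1.29, 0.954 and 6.14 CPM. The groups overlapped throughout. The log2 fold change against control was -0.12 for depletion (95% interval -1.13 to 0.90, edgeR adjusted p = 0.872) and -0.29 for hepatectomy (95% interval -1.40 to 0.82, edgeR adjusted p = 0.782).

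The spread of Prom1 followed sex instead. The 7 female livers ran from 1.80 to 12.1 CPM with a median of 5.19, and the 6 male livers from 0.954 to 2.08 CPM with a median of 1.27. Of the 7 females 6 were above every male. Over all 13 livers, a test added after these values had been seen, males were 4.62-fold below females (log2 fold change -2.21, SE 0.43, 95% interval -3.14 to -1.27, edgeR adjusted p = 0.0286). Of the 8 tested genes it was the only one called, where 1.03% of all tested genes were called and 0.6% called lower. The adjusted p ranged from 0.00575 to 0.124 with 1 library left out. The call was lost without any of control replicates 1, 3, 4 and 6, depleted replicate 3 or the 3 hepatectomy livers, while the log2 fold change stayed between -2.43 and -1.85. Within the 6 controls, 3 against 3, the log2 fold change was -2.03 (95% interval -3.54 to -0.53) and did not pass with edgeR (adjusted p = 0.28) but did with DESeq2 (adjusted p = 0.0144). In that comparison edgeR called 0 of the 8 genes (1 lower at an unadjusted p under 0.05, Prom1) and 0.738% of all genes, 0.384% as higher and 0.354% as lower in males. The genes most like Prom1 were Cyp3a41a (r = 0.89), Cyp2c69 (r = 0.85) and Cyp2c40 (r = 0.83), cytochrome P450 genes known for higher expression in female mouse liver, and the values were 0.88, 0.84 and 0.83 with group means removed.

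Afp encodes alpha-fetoprotein, the major serum protein of the fetus (chromosome 5, 90490737 to 90508907, plus strand). It lies between its relatives albumin (Alb, 90460897 to 90476602) and afamin (Afm, 90518932 to 90553543). Controls ran from 1.77 to 6.90 CPM with a median of 2.07, depleted livers had 3.77, 4.46, 1.21 and 2.27 CPM, and hepatectomy livers had 5.61, 6.04 and 2.49 CPM. The 2 male hepatectomy livers were above all controls but replicate 4, and the female one was inside the control range. The log2 fold change was -0.16 in depleted livers (95% interval -1.21 to 0.89, edgeR adjusted p = 0.833) and 0.84 after hepatectomy (95% interval -0.29 to 1.98, edgeR adjusted p = 0.35), and neither passed. In females alone the hepatectomy value was -0.50, with 1 female hepatectomy liver.

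The adult relatives of Afp remained far above it. The ratio of Alb to Afp, each in RPKM, had a median of 50510 in controls, 42453 in depleted livers and 32284 after hepatectomy, and the 3 ranges overlapped (17482 to 95586, 32315 to 69838 and 21055 to 80754). Alb was not called in either comparison (log2 fold change -0.03 and 0.69, edgeR adjusted p = 0.955 and 0.171). Afm fell in depleted livers, by 0.83 on the log2 scale (SE 0.15, edgeR adjusted p = 0.00107), from 328 ± 65.9 CPM in controls (n = 6) to 214 ± 69.9 CPM (n = 4). The Afm call was lost in females alone (-0.63, edgeR adjusted p = 0.0595) and with no sex term (-0.62, edgeR adjusted p = 0.0714). Zhx2 and Zbtb20, which repress Afp after birth, were not called. Zhx2 had log2 fold changes of -0.18 after depletion and 0.14 after hepatectomy (edgeR adjusted p = 0.379 and 0.625), and Zbtb20 had -0.72 and -0.66 (edgeR adjusted p = 0.0912 and 0.231). The genes most like Afp over the 13 livers were Zcchc17 (r = 0.86), Ift80 (r = 0.82) and Pgam1 (r = 0.82).

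Gpc3, a glypican that carries heparan sulphate on the cell surface (chromosome X, 52272426 to 52613950, minus strand), was lower still. Controls ran from 0.15 to 1.01 CPM with a median of 0.784, depleted livers had 1.11, 1.61, 0.192 and 0.512 CPM, and hepatectomy livers had 1.06, 0.870 and 3.29 CPM. Of the hepatectomy livers 2 were above all controls, and the highest was replicate 3. The log2 fold change after hepatectomy was 1.35 (95% interval 0.13 to 2.58) and did not pass after adjustment over all genes (edgeR adjusted p = 0.164). In depleted livers it was -0.11 (95% interval -1.37 to 1.154, edgeR adjusted p = 0.906). Among the genes most like Gpc3 were Ppl (r = 0.80) and Igfbp5 (r = 0.78).

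Dlk1, a Delta-like surface protein of hepatoblasts that is imprinted (chromosome 12, 109452823 to 109463336, plus strand), was close to undetected. Its raw counts were 0, 2, 0, 9, 2 and 0 in control replicates 1 to 6, then 0, 0, 0 and 2 in the depleted livers and 0, 1 and 3 after hepatectomy. Only control replicate 4 exceeded the limit of 3 counts, so no fold change is given, and a difference between groups was not detectable at this depth. When the filter on low counts was dropped, no comparison of Dlk1 passed (edgeR adjusted p = 0.196 for depletion and 0.978 for hepatectomy).

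Single livers were high for several of the 9 genes at once. Control replicate 4, a female, was the highest control for 6 of the 8 tested genes, and for 18.2% of all tested genes. Its proliferation markers summed to 49.4 CPM, against 3.60 to 20.2 CPM in the other controls. Hepatectomy replicate 3, also a female, was the highest of its group for 6 of the 8, and for 32.6% of all tested genes. Its proliferation markers summed to 82.4 CPM, the lowest of its group, against 218 and 529 CPM.

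Other duct genes gave no common direction in depleted livers. Of 20 further duct genes 17 were tested, and 4 were called higher and 3 lower (median log2 fold change 0.07), where 18.9% of all tested genes were called higher and 15.0% lower. Krt23, a keratin, fell by 3.41 on the log2 scale (SE 0.46, edgeR adjusted p = 1.38e-04). Ggt1, the gamma-glutamyltransferase of the duct surface, rose by 2.55 (SE 0.47, edgeR adjusted p = 0.00119). The epithelial transcription factor Elf3 rose by 2.42 (SE 0.57, edgeR adjusted p = 0.00544). Wfdc2, a secreted protease inhibitor, rose by 1.76 (SE 0.47, edgeR adjusted p = 0.0119), but not without depleted replicate 3 (1.36, edgeR adjusted p = 0.114), the liver that also decided Sox9. In females alone Ggt1 and Elf3 did not pass either (edgeR adjusted p = 0.0576 and 0.0522).

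After hepatectomy 3 of the 17 duct genes were called higher and 0 lower by edgeR, with a median log2 fold change of 0.14 (2 lower at an unadjusted p under 0.05, 1 by DESeq2). Of all tested genes 6.06% were called higher and 2.36% lower. Slc10a2, the bile acid uptake carrier of cholangiocytes, was 2.05 to 9.53 CPM in controls and 30.8 to 41.8 CPM after hepatectomy, with no overlap (log2 fold change 2.50, SE 0.47, edgeR adjusted p = 0.00848). Tm4sf4, a tetraspan membrane protein and the most abundant gene of the list, rose from 69.8 ± 7.11 CPM (n = 6) to 147 ± 32.9 CPM (n = 3), a fitted difference of 1.09 in log2 (SE 0.15, edgeR adjusted p = 0.00155). Elf3 had 2.42 (SE 0.64, edgeR adjusted p = 0.0346), which did not pass without hepatectomy replicate 2 (1.16, edgeR adjusted p = 0.27), with the block (edgeR adjusted p = 0.119) or without any of control replicates 1, 2, 3, 5 and 6 (edgeR adjusted p = 0.0909, 0.0881, 0.0518, 0.0608 and 0.0690). In females alone, with 1 hepatectomy liver, the log2 fold changes were 2.29 for Slc10a2, 1.07 for Tm4sf4 and 1.21 for Elf3. Spp1, Cldn7 and Pkhd1, other duct genes, were called in neither comparison. The summed level of all 20 was 328 to 432 CPM in controls, 288 to 399 CPM in depleted livers and 401 to 453 CPM after hepatectomy.

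**Figure D4:**
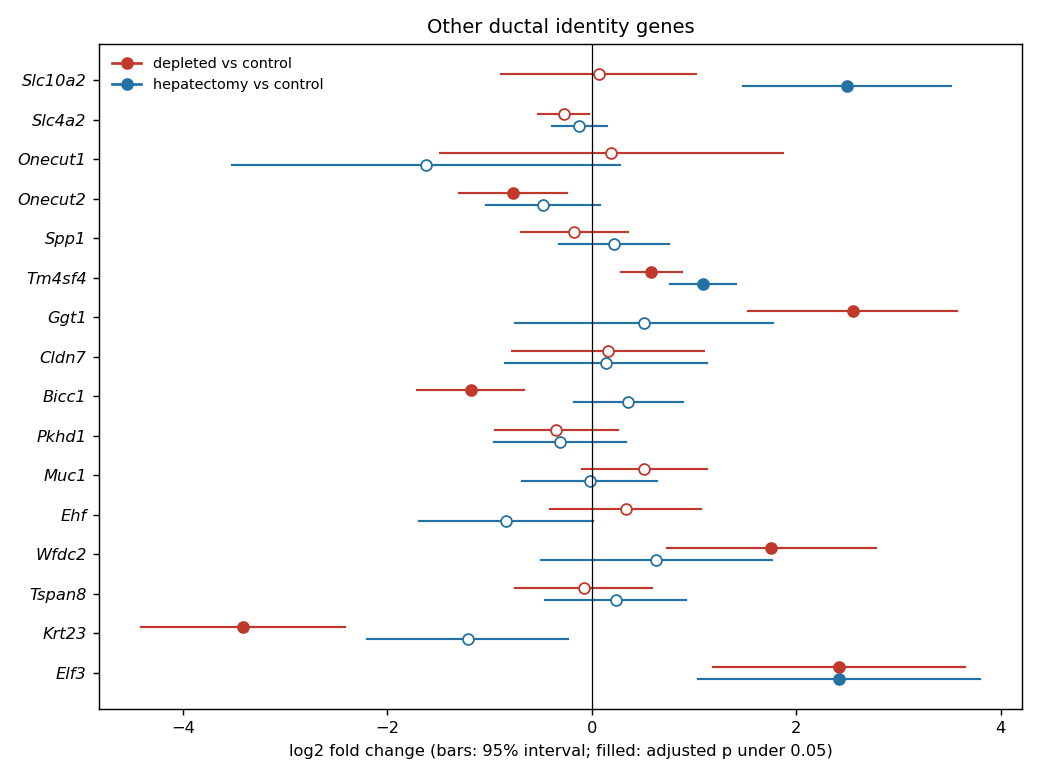
Fitted log2 fold change of 16 of the 17 tested genes of the further duct list, with 95% intervals, for depletion against control and hepatectomy against control. Filled points have an adjusted p under 0.05. Points lie on both sides of 0 in each comparison, and Tm4sf4 and Elf3 are filled to the right of 0 in both.

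Genes of Notch signalling and of the ductular reaction, the pathway that directs hepatoblasts towards duct fate, had 17 members tested. In depleted livers 6 of these were called lower and 1 higher (median log2 fold change -0.13), where 15.0% of all tested genes were called lower and 18.9% higher. Heyl and Notch3, a Notch target and a Notch receptor also found in pericytes, fell by 5.61 and 4.81 on the log2 scale (edgeR adjusted p = 1.12e-04 and 1.18e-05). They moved with the stellate markers, and the part of stellate cell loss in them was not tested. Lgr5, an R-spondin receptor, fell by 2.80 (edgeR adjusted p = 3.16e-05), and Cd44, a hyaluronan receptor also found on leukocytes, rose by 2.39 (edgeR adjusted p = 0.00108). Jag1, Notch2, Hes1 and Sox4 were not called. After hepatectomy 1 was called higher and 1 lower (median log2 fold change -0.36), where 8.42% of all tested genes were called. Tnfrsf12a, the TWEAK receptor of progenitor cells, had 1.83 (SE 0.32, edgeR adjusted p = 0.00512, and 0.0597 with the replicate block), and the growth factor receptor Fgfr2 had -0.84 (edgeR adjusted p = 0.0457). The Fgfr2 call was lost without any of control replicates 1, 2, 3 and 5 or any hepatectomy liver, with adjusted p up to 0.192.

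Of the 15 genes of the fetal liver list, 12 were in the table and 8 were tested. After hepatectomy 0 of the 8 were called by edgeR, where 8.42% of all tested genes were. DESeq2 also called 0, and 0 had an unadjusted p under 0.05. Their log2 fold changes after hepatectomy had a median of 0.23. With depletion 3 of the 8 were called, where 33.9% of all tested genes were, 1 of them higher and 2 lower: Igf2, the fetal growth factor, fell by 3.19 on the log2 scale from a control level of 0.536 ± 0.165 CPM (n = 6, edgeR adjusted p = 2.42e-04), the imprinted factor Plagl1 had -1.14 (edgeR adjusted p = 0.0340), and the fetal desaturase Scd2 rose by 1.74 (edgeR adjusted p = 0.00243). Plagl1 did not pass without any of control replicates 1, 2, 4 and 5 or depleted replicates 1, 2 and 4 (adjusted p up to 0.0914), or with the block (edgeR adjusted p = 0.0997). Lin28b was at 0 in every library. The 16 transcriptional regulators of fetal and hepatocyte genes included 7 called lower and 0 higher in depleted livers by edgeR, with a median log2 fold change of -0.37 (8 lower and 0 higher at an unadjusted p under 0.05, the same counts by DESeq2). The share of all tested genes called lower was 15.0%. The 7 were headed by Tbx3 (-2.14), Foxa1 (-1.12), Cebpa (-1.0) and Gata4 (-1.0), with edgeR adjusted p = 0.00283, 1.75e-04, 0.00247 and 6.68e-04. After hepatectomy 2 were called higher and 2 lower, where 6.06% and 2.36% of all tested genes were (2 higher and 7 lower at an unadjusted p under 0.05, 2 higher and 4 lower by DESeq2), including Gata6 (1.65, edgeR adjusted p = 0.00584, and 0.0682 with the block) and Cebpa (-1.50, edgeR adjusted p = 0.00301). Among 8 tested relatives of the 9 genes, 1 was called higher and 2 lower in depleted livers, where 33.9% of all tested genes were called. Gpc6 fell by 4.80 on the log2 scale (edgeR adjusted p = 0.00414), Afm fell as given above, and Gpc4 rose by 0.49 (edgeR adjusted p = 0.0227). After hepatectomy edgeR called 0 of these relatives (4 higher at an unadjusted p under 0.05, 1 by DESeq2), where 8.42% of all tested genes were called. The Gpc4 call was lost without any of control replicates 3 and 5 or depleted replicates 1, 2 and 3 (adjusted p up to 0.0982) and with the block (edgeR adjusted p = 0.116). In females alone Gpc6, Cebpa and Gpc4 did not pass for depletion (edgeR adjusted p = 0.0568, 0.0622 and 0.132). For hepatectomy, with 1 female hepatectomy liver, the log2 fold changes in females were 1.38 for Gata6 and -1.07 for Cebpa.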

How the data were processed

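Whole-liver RNA was extracted with TRIzol and made into Illumina TruSeq stranded mRNA libraries from 500 ng each, run over 2 lanes, per the labels' protocols. The authors deposited raw read counts per gene, whole numbers with no normalization, in a single table of 13 libraries, together with gene coordinates and a summed exon length per the file headers. STAR 2.7.1a, SAMtools 1.15.1, featureCounts 1.6.4 and build mm10 are named in the submitters' processing notes. The strand setting of the counting is not given in the sources used here, so reads of a gene and of an opposite-strand neighbour may be mixed. Krt7, Prom1, Afp and Gpc3, 4 of the 9 genes, overlap such a neighbour. Symbols were matched by Ensembl ID to GENCODE M21 (21818 of 22048 IDs), and 99.94% of the matched genes overlapped the same gene in GRCm38.

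Counts were tested with edgeR 4.0.16 in R 4.3.3 (quasi-likelihood F-test, robust, group and sex as terms, filterByExpr, TMM factors, Benjamini-Hochberg adjustment over 13831 genes, threshold 0.05). All 13 libraries shared 1 estimate of the spread. Male and female controls were compared in the 6 controls (13005 genes). Standard errors are the log2 fold change divided by the square root of F. CPM and RPKM were computed from the counts with TMM-scaled totals of the tested genes, and correlations used log2 CPM with a prior count of 2. On data simulated for depleted against control (13517 genes, 200 changed), 49% of 2-fold and 80.4% of 4-fold changes were recovered, with 4 false calls of 134. The simulation had no sex effect and few changed genes, whereas 33.9% of tested genes were called in the real comparison. Its rates therefore do not describe that comparison.

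The 9 genes and all gene lists were chosen with earlier results of these data known. From each list, at most 4 called genes of largest change per comparison were open to naming, with the most abundant gene of marker lists. Krt8, Krt18, Alb, Zhx2, Zbtb20 and the uncalled genes of the duct and Notch lists were named after their values were seen. The alternatives were DESeq2 1.42.0, other scalings, no filter, no sex term, females only, 2 groups only, a replicate block and leaving out each library. The comparison of the sexes over all livers was added after the data had been seen. Replicate numbers recur between groups, and no label says what they mark. Same-numbered control and hepatectomy livers share sex, while some same-numbered pairs with depleted livers do not. Deviations from group and sex means correlated between same-numbered libraries at a mean r of 0.12 for control and depleted, -0.05 for control and hepatectomy, and 0.16 for depleted and hepatectomy livers. From group means alone, the 3 control and hepatectomy pairs correlated at 0.11 to 0.52, so a pairing there, which sex would also give, was not settled, and values with the block are printed beside the calls it ends. A result for 2 genes, 1 of them a tested duct gene that is left out of the plot of duct genes, is not reported here.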

Additional observations from a re-analysis of the deposited data

Results flagged for a closer look

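In 18 groups of at least 4 libraries, a single library stood apart from its group by Dixon's criterion in 5, where chance gives about 0.9. Sox9 reached 13.1 CPM in depleted replicate 3, with the other 3 depleted livers between 2.05 and 3.61 CPM. Prom1 reached 12.1 CPM in control replicate 4, and Afp reached 6.90 CPM in the same liver, where the next highest controls had 5.19 CPM and 3.06 CPM. Dlk1 stood at 0.202 CPM, or 9 counts, in control replicate 4 too. Dlk1 was 0.0446 CPM, or 2 counts, in depleted replicate 4 and 0 in the other 3 depleted livers, which lies below the limit of 3 counts. With 3 zeros in a group of 4 the criterion is met whatever the fourth value, so this one says nothing against the number given by chance. Of the 5 values 3 thus come from control replicate 4.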

How the results depend on the processing

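Cd24a in depleted livers and Krt19 after hepatectomy kept direction and call under each library left out. In the comparisons of single genes, 1747 values under an alternative kept their direction and call, 169 kept direction but lost the call, 4 gained one and 36 changed sign. Genes called for depletion against control numbered 2726 in females alone (4692 in all livers), and the 9 genes contributed 1 there and 1 with the replicate block. For hepatectomy against control, 1164 genes became 1939 with DESeq2, 90 in females alone with 1 hepatectomy liver, 2192 by library size alone and 632 with the block, and the 9 genes contributed 0 in females alone and 0 with the block. For depleted against hepatectomy livers, 3236 became 1263 in females alone and 2105 with the 2 groups only. For male against female controls, 96 became 445 with DESeq2, where 1 of the 9 was called.

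With 1 library left out, calls ranged from 2960 to 4817 for depletion, 483 to 1331 for hepatectomy, 1709 to 3850 between them, 32 to 200 for sex in controls and 84 to 269 for sex in all livers. The 9 genes contributed 1 to 2, 1 to 3, 3, 0 and 0 to 1. The lowest depletion count came without depleted replicate 3. By library size alone the higher and lower calls were 2884 and 1471 for depletion (2614 and 2078 with TMM), 626 and 1566 for hepatectomy (838 and 326), and 3102 and 610 between them (1837 and 1399). That scaling moved the median gene to -0.24 for hepatectomy and 0.27 between them.

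Signs turned only for genes not called. For depletion they were Prom1 (0.36 with no sex term) and Gpc3 (0.55 in females, 0.38 with no sex term, 0.0039 with 2 groups only). For hepatectomy it was Afp in females (-0.50). Between them they were Sox9 (0.17 by library size alone), Prom1 (-0.13 with the replicate block) and Afp (0.48 in females). With 1 library left out, depletion values crossed 0 for Krt19 (-0.34 to 0.00012), Prom1 (-0.54 to 0.33), Afp (-0.39 to 0.49) and Gpc3 (-0.49 to 0.30), and hepatectomy values for Prom1 (-0.48 to 0.0233). Between them Sox9 (-1.21 to 0.10) and Prom1 (-0.23 to 0.35) crossed. For sex in controls Krt19 (-0.24 to 0.0393), Krt7 (-0.16 to 0.45), Sox9 (-0.26 to 0.15), Afp (-0.91 to 0.35) and Gpc3 (-0.69 to 0.0844) crossed, and in all livers Krt7 (-0.24 to 0.34) and Afp (-0.88 to 0.12). The cause was not tested. Besides the calls named with the results, the replicate block changed no call of the 9 genes. Depth limits Dlk1 in particular.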

Other observations

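Sex differences other than that of Prom1 did not pass over the 13 livers. Gpc3, which is X-linked, had a male minus female difference of -1.17 in log2 (SE 0.51, edgeR adjusted p = 0.391), with medians of 0.784 CPM in 6 males and 1.01 CPM in 7 females. Sox9 had 0.78 (SE 0.37, edgeR adjusted p = 0.425), with medians of 3.21 CPM in males and 2.12 CPM in females. Without depleted replicate 3 the Sox9 value was 0.0857 (edgeR adjusted p = 0.921). Epcam had -0.41 (SE 0.23, edgeR adjusted p = 0.492), and 5 of 7 females were above every male. The genes most like Epcam over the 13 livers were Samd4, Evc2 and Mmd2, with r = 0.75, 0.75 and 0.74.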
